A study of Mus musculus with 17 samples.

Results

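The 10 macrophage genes described here are Cd68, Csf1r, Adgre1, Cd14, C1qa, C1qb, C1qc, Mrc1, Msr1 and Lyz2, a list chosen by name. All 10 were measured, among 12393 genes in all, and each is represented by its probe set with the highest mean over the 17 arrays. They were followed in 17 mammary tumours of FVB mice, 1 array per tumour, in a series described as tumours that express at a low level Myc T58A, a mutant form of the transcription factor Myc. In all of them the mutant Myc is under the MMTV promoter, whose activity is mainly in the mammary epithelium, and no normal mammary gland was analysed here. The histology label divided the tumours into 6 EMT tumours (named after the epithelial to mesenchymal transition), 1 Papillary tumour, 1 Microacinar tumour and 9 Squamous tumours. All values are log2 values as deposited, so a difference of 1 stands for a doubling, and the number of a tumour is only its name within a label.

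Macrophages are phagocytes of the innate immune system. In mammary tumours they enter from blood monocytes or expand from tissue residents, and their survival depends on the receptor Csf1r and its ligands Csf1 and Il34. They engulf dead cells and particles through scavenger and lectin receptors (Msr1, Mrc1), break them down in lysosomes (Cd68, Lyz2), sense bacterial lipopolysaccharide (LPS) through Cd14, and secrete the complement protein C1q, which is built from the chains C1qa, C1qb and C1qc. None of these genes is restricted to macrophages in every setting: Lyz2 is also a gene of neutrophils, Cd14 of neutrophils and some epithelia, and Mrc1 of lymphatic and sinusoidal endothelium. The tumours were measured in bulk, where fewer cells of a type and less RNA per cell cannot be told apart.

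The arrays carried titles of 2 formats, 14 numbered titles and 3 in which TM follows a number (EMT 5, EMT 6 and Squamous 9). The TM arrays had a wider distribution (SD of the probe set values 2.46 to 2.51, numbered arrays 2.25 to 2.29), so the model also took in title format, and values within each format are given below. Squamous 7 and Squamous 8 share a title number, as do the Microacinar tumour and Squamous 5. The labels do not say whether these tumours came from separate animals, so p-values measure only the spread between the tumours, part of which may be technical. The Gapdh control probe sets, a sign of RNA integrity, were brighter at the 3′ than at the 5′ end by −0.03 to 0.39 in EMT and −0.02 to 0.38 in Squamous tumours. For the actin control this difference was 0.44 to 0.82 in EMT and 0.62 to 0.96 in Squamous tumours, with EMT 2, EMT 3 and EMT 6 below every Squamous tumour, and its part in the results was not tested. Myc had a mean of 10.37 ± 1.15 (SD, n = 6) across EMT tumours, against 11.09 ± 1.01 (SD, n = 9) across Squamous tumours. All tumours share the mutant Myc label, so these values cannot check it.

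Promoters of 5 members, from RefSeq (build GRCm38.p6), are shown with the 250 bases before the gene's start, because these genes varied together across tumours. Capitals mark GAGGAA, the core of the sites bound by PU.1 (the product of Spi1), the transcription factor that macrophages require, searched on both strands, where TTCCTC is its reverse complement. The promoters of Adgre1, C1qa, Cd14, Csf1r and Msr1 are not shown.
C1qb (chr4:136886201-136886450, minus strand): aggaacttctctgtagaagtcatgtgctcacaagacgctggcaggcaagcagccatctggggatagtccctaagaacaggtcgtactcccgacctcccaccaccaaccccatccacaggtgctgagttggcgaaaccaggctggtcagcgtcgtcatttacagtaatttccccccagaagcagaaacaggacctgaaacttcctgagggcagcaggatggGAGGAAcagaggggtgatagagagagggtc
C1qc (chr4:136892915-136893164, minus strand): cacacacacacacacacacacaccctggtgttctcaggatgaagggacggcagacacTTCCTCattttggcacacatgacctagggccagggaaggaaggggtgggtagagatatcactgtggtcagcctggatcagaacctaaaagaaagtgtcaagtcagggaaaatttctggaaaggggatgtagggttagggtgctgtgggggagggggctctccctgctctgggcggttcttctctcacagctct
Cd68 (chr11:69666171-69666420, minus strand): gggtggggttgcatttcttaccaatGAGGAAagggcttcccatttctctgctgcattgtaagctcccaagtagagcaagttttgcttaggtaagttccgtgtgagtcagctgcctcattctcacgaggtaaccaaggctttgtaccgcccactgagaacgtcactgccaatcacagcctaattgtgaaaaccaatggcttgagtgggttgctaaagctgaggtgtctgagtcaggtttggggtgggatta
Mrc1 (chr2:14229164-14229413, plus strand): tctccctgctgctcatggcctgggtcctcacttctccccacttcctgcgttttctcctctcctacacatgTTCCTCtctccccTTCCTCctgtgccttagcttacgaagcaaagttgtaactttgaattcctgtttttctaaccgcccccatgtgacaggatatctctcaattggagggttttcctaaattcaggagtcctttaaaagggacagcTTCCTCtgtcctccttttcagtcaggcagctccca
Lyz2 (chr10:117282273-117282522, minus strand): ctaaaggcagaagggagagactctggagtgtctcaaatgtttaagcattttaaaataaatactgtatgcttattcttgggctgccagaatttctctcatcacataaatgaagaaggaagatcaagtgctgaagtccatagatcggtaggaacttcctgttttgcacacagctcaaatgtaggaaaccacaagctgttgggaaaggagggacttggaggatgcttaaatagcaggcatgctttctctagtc
C1qb, C1qc and Cd68 hold 1 match each, Mrc1 holds 3, and Lyz2 holds none in this window. The match lies 30 bases before the start in C1qb, 193 in C1qc and 225 in Cd68, and the nearest of the matches in Mrc1 lies 35 bases before it. Of the 32851 promoters of the table, 23.3% hold the same letters on either strand in a window of equal length, so a match is a description of the sequence and not a site.

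Macrophage genes varied widely between tumours of one histology, and 9 of the 10 varied together. EMT 5 had the highest value of all 17 tumours in 8 of the 10 genes, EMT 6 in 1 (Msr1) and Squamous 4 in 1 (Cd14). Squamous 1 had the lowest value in 7 of the 10. These counts were not made over all genes, and EMT 5 and EMT 6 are TM arrays, which had the wider distribution. Both lay above all 9 Squamous tumours in 7 of the 10 members and in 19.0% of all genes. Relative to the Squamous mean of each gene, the 9 genes other than Cd14 stood on average 2.25 higher in EMT 5, 1.87 higher in EMT 6 and 0.95 higher in EMT 4. The same average was −0.30 in EMT 1, −0.55 in EMT 2, −0.58 in EMT 3, −0.65 in the Papillary tumour and −0.81 in the Microacinar tumour. The Squamous tumours spread on both sides of their mean: Squamous 1, Squamous 2 and Squamous 6 stood at −1.40, −1.02 and −1.06, and the other 6 between 0.14 (Squamous 4) and 0.92 (Squamous 8). The EMT label thus held both the tumours with the most macrophage gene signal and 3 tumours below the Squamous mean, while Cd14 followed another order.

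**Figure D1:**
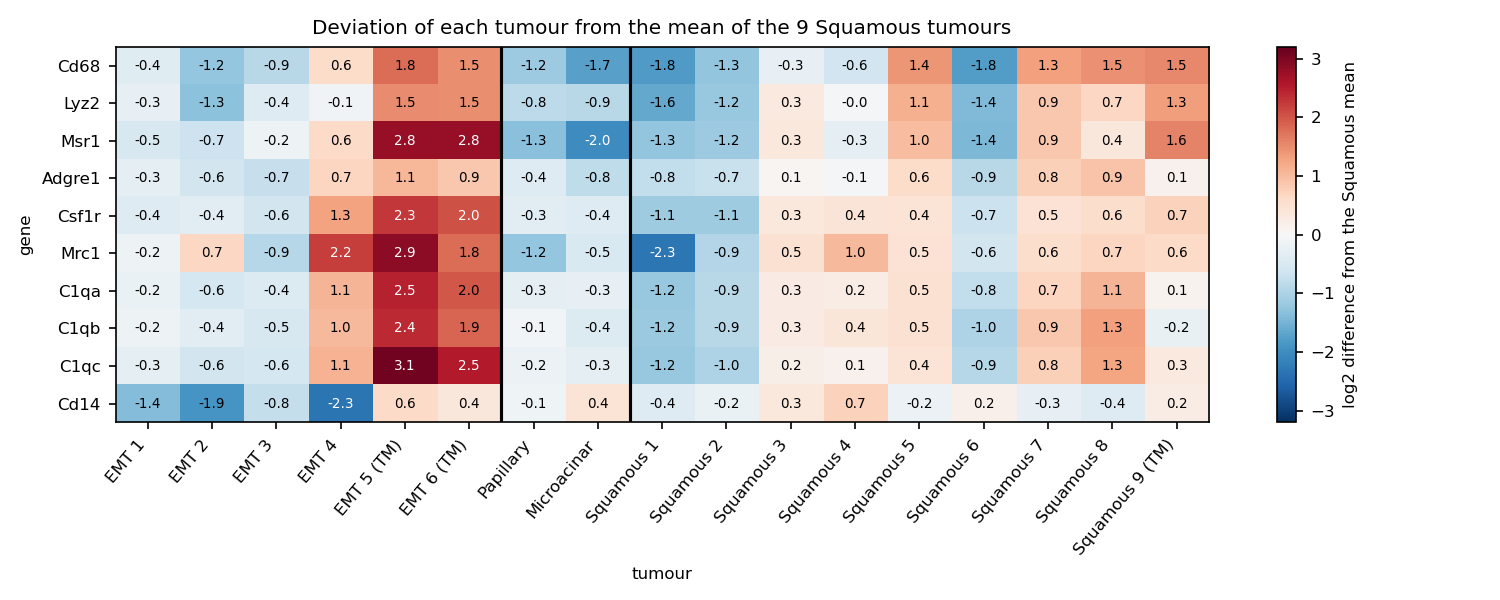
Log2 difference of each macrophage gene (rows) in each tumour (columns) from the mean of that gene over the 9 Squamous tumours, with EMT tumours on the left, the Papillary and Microacinar tumours in the middle and Squamous tumours on the right. EMT 5 and EMT 6 are red in every row, Squamous 1 and Squamous 2 are blue in every row, and the Cd14 row at the bottom is blue in EMT 1 to EMT 4.

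EMT was compared with Squamous, the only histologies with replicates, to ask whether macrophage genes differ between them. None of the 10 members passed the test over all genes (limma, Benjamini-Hochberg adjusted p under 0.05), and 0% of the 12393 genes did. At an unadjusted p under 0.05, 1 of 10 members was lower in EMT tumours (Cd14) and 0 were higher, against 6.27% of all genes lower and 8.08% higher. In 0 of the 10 did all EMT tumours lie above, or all below, all Squamous tumours, as held for 0.153% and 0.0968% of all genes. The median log2 fold change of the members was 0.29, against 0.01 over all genes, with 6 of 10 members above 0, where 51.8% of all genes were. This median was −0.04 among numbered arrays, 0.07 without EMT 4, 0.05 without Squamous 1 and Squamous 2, 0.70 without the title format term and −0.11 with array weights, so its size or sign moved with these tumours, the weighting and the title format term. The members' SD over the 17 tumours had a median of 1.04, against 0.32 over all genes.

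**Figure D2:**
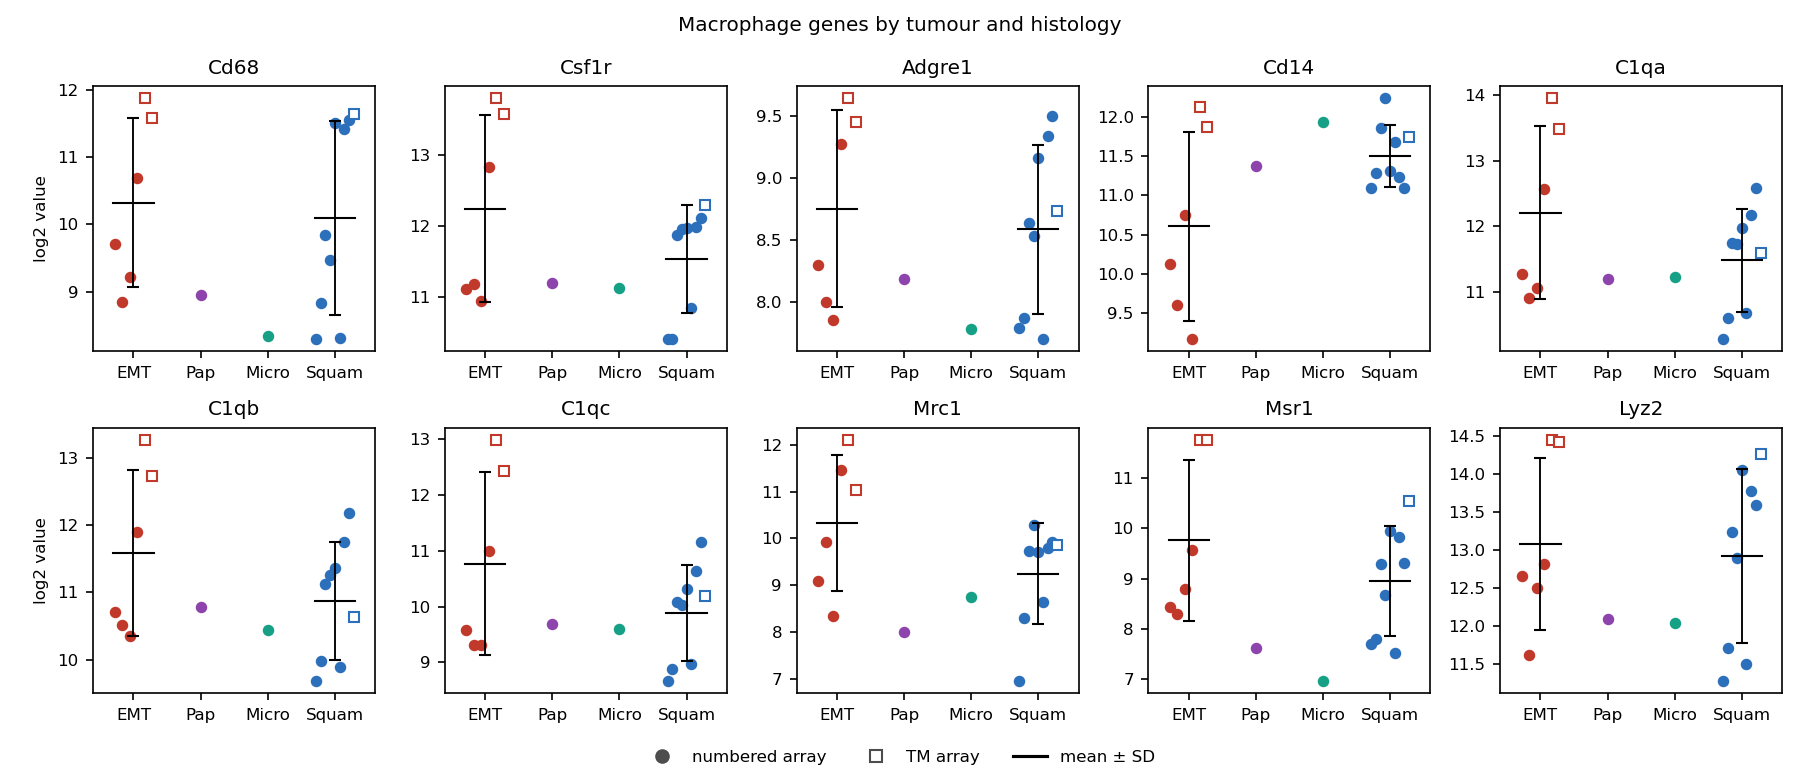
Log2 value (vertical axis) of each macrophage gene in every tumour, grouped on the horizontal axis as EMT, Papillary (Pap), Microacinar (Micro) and Squamous (Squam). Filled circles are numbered arrays, open squares TM arrays, and bars show mean ± SD of the 6 EMT and 9 Squamous tumours. EMT 5 and EMT 6, the open red squares, lie above all Squamous points in 7 of the 10 panels, as they did in 19.0% of all genes. After quantile normalization this held for 6 of the 10 members and 19.4% of all genes. In the Cd14 panel the 4 filled EMT circles lie below all Squamous points.

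Csf1r encodes the receptor for Csf1 and Il34, on which macrophages depend for survival. Its value was 11.12 in EMT 1, 11.18 in EMT 2, 10.94 in EMT 3, 12.83 in EMT 4, 13.79 in EMT 5 and 13.57 in EMT 6. Across Squamous tumours it ran from 10.41 through a median of 11.96 to 12.29. EMT 4, EMT 5 and EMT 6 therefore lay above every Squamous tumour, and the other 3 EMT tumours lay among the lower Squamous tumours. The Papillary tumour, at 11.20, and the Microacinar tumour, at 11.13, lay next to EMT 1 to EMT 3. The log2 fold change of Csf1r was 0.34 (SE 0.40, 95% interval −0.52 to 1.20, limma adjusted p = 0.731). The ligand Csf1 had the same 3 EMT tumours on top: 10.74, 11.49 and 11.57 in EMT 4, EMT 5 and EMT 6, against a highest Squamous value of 9.54. Il34, the other ligand, was 7.67, 7.57 and 7.94 in these 3 tumours, against a highest Squamous value of 6.40. In EMT 1, EMT 2 and EMT 3 Csf1 was 8.92, 8.60 and 9.29, within or just below the Squamous range of 8.65 to 9.54. The log2 fold changes were 0.65 for Csf1 (95% interval −0.07 to 1.37) and 0.79 for Il34 (95% interval 0.08 to 1.51), with limma adjusted p of 0.390 and 0.314.

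Adgre1 encodes an adhesion receptor that is used as a surface marker of mouse macrophages. Its mean was 8.76 ± 0.80 (SD, n = 6) across EMT tumours, against 8.59 ± 0.68 (SD, n = 9) across Squamous tumours. The log2 fold change was −0.01 (SE 0.35, 95% interval −0.76 to 0.75, limma adjusted p = 0.995). The interval extends about equally in both directions, and the sign of the estimate turned in several settings, among them the subtraction of array medians. Adgre1 had the narrowest range of the members over the 17 tumours, a 3.86-fold range, from 7.85 through a median of 8.79 to 9.65 in EMT tumours and from 7.70 through 8.64 to 9.50 in Squamous tumours. The ranges of both histologies coincided almost fully.

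The C1q chains had nearly the same profile over tumours. C1qa was 11.28, 10.91, 11.06, 12.56, 13.95 and 13.48 in EMT 1 to EMT 6, and ran in Squamous tumours from 10.28 (Squamous 1) through a median of 11.73 to 12.58 (Squamous 8). C1qb reached 13.26 in EMT 5 and 12.73 in EMT 6, where no Squamous tumour exceeded 12.18. For C1qc these tumours had 12.98 and 12.43, where no Squamous tumour exceeded 11.16. EMT 5 and EMT 6 stood above all Squamous tumours in all 3 chains, and EMT 4 stood among the highest Squamous tumours. Over the 17 tumours Pearson's r was 0.99 for C1qa with C1qb (Spearman's rho 0.97), 0.99 for C1qa with C1qc (rho 0.98) and 0.98 for C1qb with C1qc (rho 0.96). The permutation p was 1e-05 for each, the smallest that the 100000 permutations can give, with an adjusted p of 2.05e-05 for r over the 45 pairs of members. Among the 14 numbered arrays r was 0.986, 0.995 and 0.990 for these pairs, and without the 2 tumours farthest from the median of the first chain it was 0.98, 0.99 and 0.97 over all arrays. The 3 genes lie side by side on mouse chromosome 4, and the RefSeq gene table of GRCm38.p6 lists no other gene between them.

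In the test of EMT against Squamous tumours the chains had log2 fold changes of 0.41 for C1qa (SE 0.45), 0.45 for C1qb (SE 0.49) and 0.47 for C1qc (SE 0.50), with limma adjusted p of 0.706, 0.706 and 0.697. Among numbered arrays these estimates were −0.02, −0.03 and −0.04, and on the TM arrays EMT 5 and EMT 6 stood 2.13, 2.36 and 2.51 above Squamous 9. The difference between the title formats did not pass the test of the interaction (limma adjusted p = 0.551, 0.531 and 0.486), for which 0.460% of all genes passed. The positive estimates were thus not present among the numbered arrays. C1ra and C1s1, the proteases that circulate with C1q, averaged 8.53 ± 0.72 and 8.74 ± 0.67 (SD, n = 6) in EMT tumours, and 9.01 ± 1.21 and 9.70 ± 1.02 (SD, n = 9) in Squamous tumours. Their log2 fold changes were −0.61 and −1.08, with limma adjusted p of 0.635 and 0.325.

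**Figure D3:**
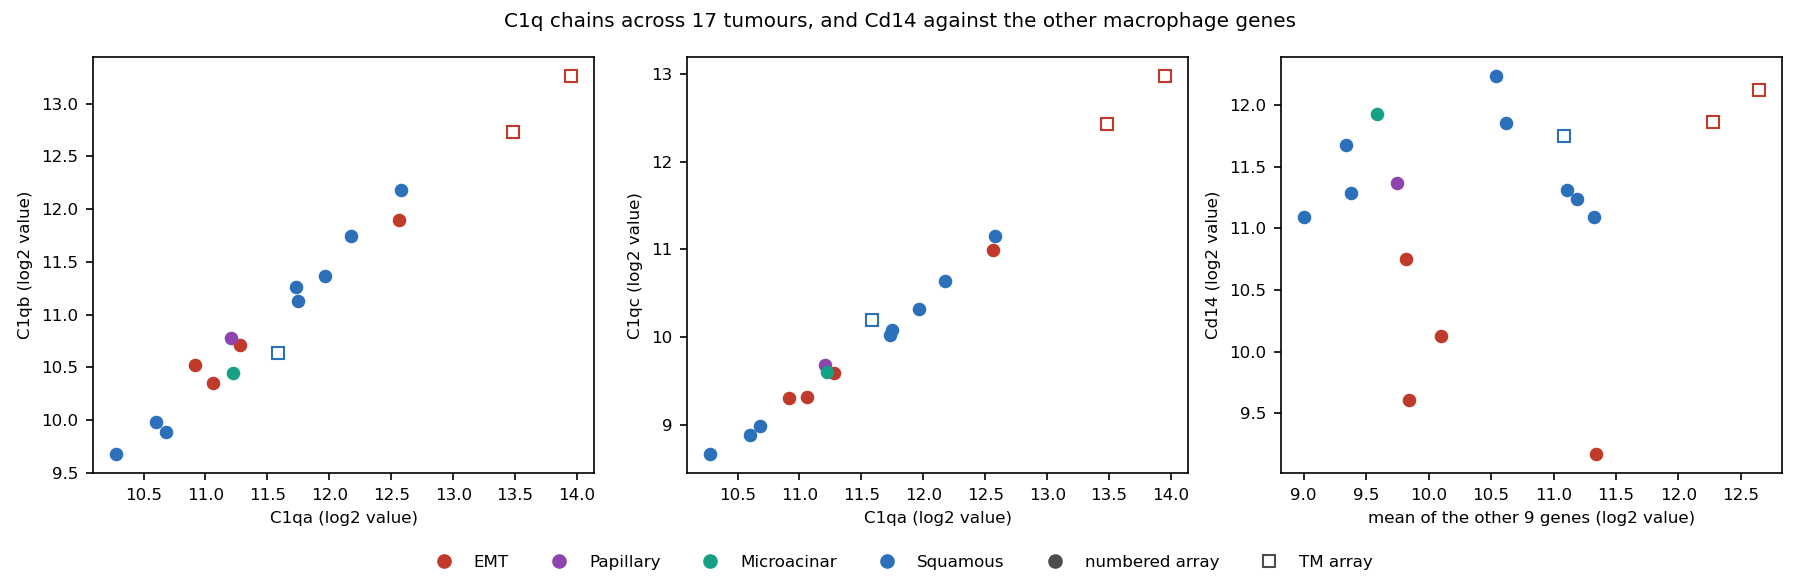
Log2 values of C1qb and C1qc (vertical axes of the left and middle panels) against C1qa, and of Cd14 (right panel) against the mean of the other 9 macrophage genes, for 17 tumours coloured by histology, with TM arrays as open squares. The C1q points form a narrow line in which EMT 5 and EMT 6 are at the upper end, and in the Cd14 panel EMT 1 to EMT 4 lie below all other tumours at any level of the other 9 genes.

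Mrc1, the macrophage mannose receptor, and Msr1, a scavenger receptor for modified lipoproteins, had the widest ranges of the members. In EMT 4, EMT 5 and EMT 6 Mrc1 was 11.45, 12.10 and 11.04, all above its highest Squamous value of 10.28, and it was lowest at 6.94 in Squamous 1. The other EMT tumours had Mrc1 values of 9.08, 9.91 and 8.34, within the Squamous range. From the lowest to the highest of the 17 tumours Mrc1 spanned a 35.8-fold range and Msr1 a 27.9-fold range. Msr1 was 11.76 in both EMT 5 and EMT 6, against at most 10.54 (Squamous 9) in Squamous tumours, and EMT 4, at 9.56, lay below 3 of the Squamous tumours. The lowest Msr1 value, 6.95, was that of the Microacinar tumour. The log2 fold changes were 0.77 for Mrc1 (SE 0.58, 95% interval −0.49 to 2.02, limma adjusted p = 0.562) and 0.25 for Msr1 (SE 0.43, 95% interval −0.68 to 1.18, limma adjusted p = 0.821). Lyve1, a hyaluronan receptor of lymphatic endothelium and of some tissue macrophages, was high where Mrc1 was high: EMT 4 had 9.95, EMT 5 had 11.47 and EMT 6 had 10.06, against at most 8.59 in Squamous tumours. The mean of the 5 measured lymphatic and sinusoidal endothelial genes, Lyve1 among them, ran from 6.23 to 7.77 in EMT tumours and from 5.64 to 6.87 in Squamous tumours, and its r with the mean of the 9 members other than Cd14 was 0.83 over the 17 tumours, a description without a p. Of the other 4, Pdpn, a mucin-like protein that fibroblasts also make, lay between 8.84 and 11.70 in EMT and between 7.65 and 10.89 in Squamous tumours. Flt4, a receptor of lymphatic endothelium, lay between 7.07 and 7.83 in EMT and between 6.75 and 7.89 in Squamous tumours. Prox1 (3.22 to 3.91 in EMT, 3.42 to 3.87 in Squamous tumours) and Stab2 (4.69 to 5.32 in EMT, 4.66 to 5.03 in Squamous tumours) were always under the lower quartile of the tumour's own array. The part of these endothelial cells in the Mrc1 values was not tested.

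Cd68, a glycoprotein of late endosomes and lysosomes, and Lyz2, the lysozyme of phagocytes, placed EMT 4 differently from Csf1r and Mrc1. Cd68 was 9.70, 8.85, 9.22, 10.70, 11.88 and 11.58 in EMT 1 to EMT 6. In Squamous tumours it was 11.50, 11.42, 11.55 and 11.64 in Squamous 5, Squamous 7, Squamous 8 and Squamous 9, and between 8.29 and 9.84 in the other 5. These 4 Squamous tumours exceeded EMT 4 in Cd68, although EMT 4 exceeded them in Csf1r and Mrc1. Those 4 Squamous tumours exceeded EMT 4 in Lyz2 as well: EMT 4 had 12.82, EMT 5 had 14.45 and EMT 6 had 14.43, against 14.06, 13.79, 13.59 and 14.27. Unlike in Cd68, Squamous 3 (13.25) and Squamous 4 (12.90) also exceeded EMT 4 in Lyz2. The log2 fold changes were −0.21 for Cd68 (SE 0.60, 95% interval −1.49 to 1.07, limma adjusted p = 0.900) and −0.25 for Lyz2 (SE 0.46, 95% interval −1.24 to 0.74, limma adjusted p = 0.837). The probe sets that name Lyz1, a close relative whose gene adjoins Lyz2, had an r of 0.99, 0.99 and 0.81 with the Lyz2 probe set over the 17 tumours. Their means were 13.67, 12.85 and 5.33, so the last was far dimmer than the other 2. By these r values the signal of the relative cannot be told apart from that of Lyz2.

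The genes Gpnmb, Mmp12 and Itgax were highest in the same 4 Squamous tumours, and were picked from their lists by size of change or by p. Gpnmb, a membrane glycoprotein of phagocytes and pigment cells, lay between 12.48 and 13.37 in Squamous 5, Squamous 7, Squamous 8 and Squamous 9, and at most 10.81 in the other Squamous tumours. In EMT 4, EMT 5 and EMT 6, the tumours with the most Csf1r, Gpnmb was 5.82, 7.63 and 6.12, and it was highest among EMT tumours in EMT 1, at 11.47. Mmp12, the macrophage elastase, was 13.51, 13.05, 12.79 and 13.54 in the same Squamous tumours, and 5.29, 8.95 and 9.49 in EMT 4, EMT 5 and EMT 6. Itgax, the integrin chain of dendritic cells and some macrophages, reached 10.51 to 11.08 in these 4 Squamous tumours and did not exceed 8.78 in the EMT label. Between the labels the log2 fold change was −3.45 for Gpnmb (SE 1.07), −3.12 for Mmp12 (SE 0.95) and −1.82 for Itgax (SE 0.63), with limma adjusted p of 0.214, 0.211 and 0.241. High macrophage signal in the EMT and in the Squamous label was therefore accompanied by different levels of these 3 genes, a description of single tumours without a test of its own. Other matrix proteases had other orders: Mmp9 was highest among Squamous tumours in Squamous 3, at 11.10, and Mmp13 in Squamous 5, at 12.92.

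Cd14, the receptor that passes LPS to Tlr4, was the one member with an unadjusted p under 0.05. It was 10.12, 9.61, 10.75 and 9.17 in EMT 1 to EMT 4, 12.12 in EMT 5 and 11.86 in EMT 6. The Squamous tumours ran from 11.09 through a median of 11.31 to 12.23. All 4 EMT tumours on numbered arrays lay below all 8 Squamous tumours on numbered arrays, which held for 0.315% of all genes, while EMT 5 and EMT 6 each lay above 8 of the 9 Squamous tumours. The log2 fold change was −1.20 (SE 0.31, 95% interval −1.87 to −0.53), or a level 0.436 times that of Squamous tumours. The unadjusted limma p of 0.00183 was the 132nd smallest of 12393, and the adjusted p was 0.170. Over all alternative fits the adjusted p lay between 0.0850 and 0.398. Within the numbered arrays the estimate was −1.56, and within the TM arrays EMT 5 and EMT 6 averaged 0.24 above Squamous 9. The interaction of histology with title format was 1.80 (95% interval 0.45 to 3.16, limma adjusted p = 0.321), so that the title formats were not shown to differ after adjustment.

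The spread of Cd14 was 1.20 (SD, n = 6) among EMT tumours, against 0.39 (SD, n = 9) among Squamous tumours. In Squamous tumours it stayed within 1.15, a 2.21-fold range, while Cd68 covered a 10.2-fold range in the same tumours. EMT 4 showed the widest separation, with Cd14 lower than the Squamous mean by a deviation of −2.33 and the other 9 genes higher by 0.95 on average. The Papillary and Microacinar tumours, at 11.37 and 11.93, lay within the Squamous range of Cd14. Over the 17 tumours the 36 pairs of members without Cd14 had r between 0.72 and 0.99 (median 0.88), and all 36 passed after adjustment over the 45 pairs, with a largest permutation adjusted p of 0.00114. No such count was made over pairs of all genes, here or in the sets of 14 and 8 tumours. The mean of 10 fibroblast genes also had an r of 0.79 with the mean of the 9 members. The covariation was thus not shown to be particular to the members. The 9 pairs with Cd14 had r between −0.01 and 0.32 (rho 0.13 to 0.40), and 0 passed, the smallest permutation adjusted p being 0.257. Among the 14 numbered arrays the pairs without Cd14 had r between 0.60 and 0.995 and all 36 passed, and the pairs with Cd14 had r between −0.33 and 0.09 and 0 passed. Within the 8 numbered Squamous tumours the pairs without Cd14 had r between 0.71 and 0.996, and all 36 passed by an exact permutation test (30 of them by Spearman's rho). The pairs that did not pass by rho were those of Mrc1 with Cd68, Adgre1, C1qa, C1qc, Msr1 and Lyz2 (exact permutation adjusted p from 0.064 to 0.246). By r the covariation thus did not rest on the EMT tumours, and by rho this was not shown for these pairs of Mrc1. Without the 2 tumours farthest from the median, r over the 17 tumours was 0.59 or more for every pair without Cd14 and at most 0.50 for the pairs with it.

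**Figure D4:**
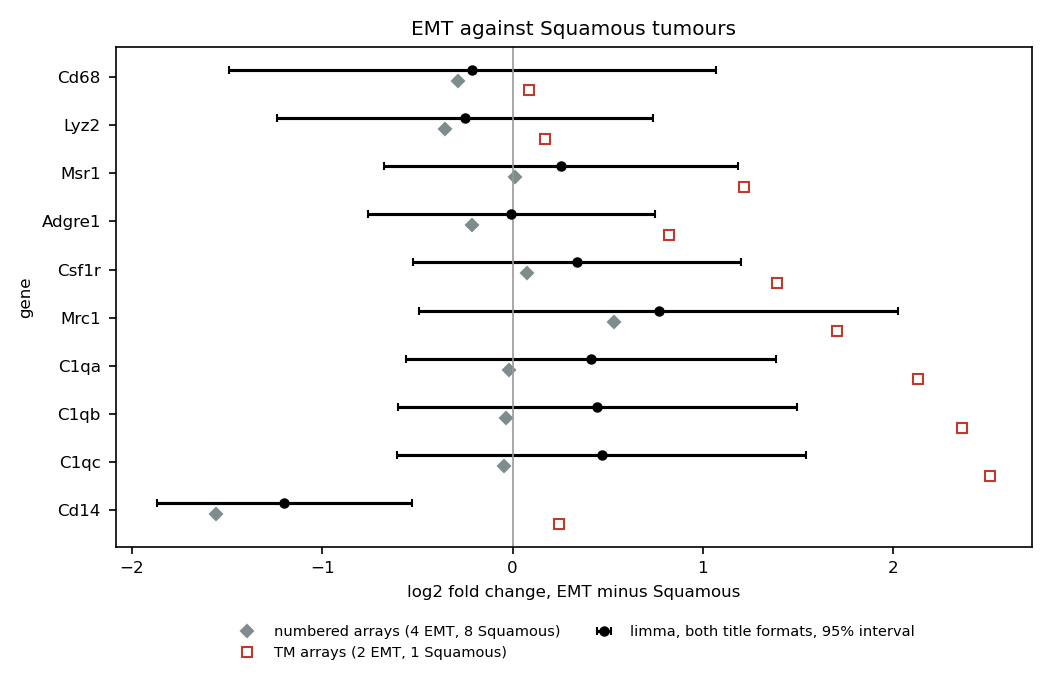
Log2 fold change, EMT minus Squamous, of each macrophage gene (horizontal axis), as the limma estimate over both title formats with its 95% interval (black), and as the difference of means within numbered arrays (grey diamonds) and within TM arrays (open red squares, without an interval). The interval leaves out 0 for Cd14 alone, and the TM value lies to the right of the numbered value for all 10 genes.

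Other parts of the LPS receptor differed from Cd14 in their profile, though Tlr4 shared its direction within each title format. Lbp, the plasma protein that loads LPS onto Cd14, was 10.16, 9.18, 11.62, 8.70, 9.39 and 7.66 in EMT 1 to EMT 6 and ran from 10.95 through a median of 11.40 to 12.16 in Squamous tumours. EMT 3 alone lay within the Squamous range of Lbp, and the other 5 EMT tumours lay below it. The log2 fold change of Lbp was −1.76 (SE 0.42, limma adjusted p = 0.153), with −1.60 within numbered arrays and −2.42 within TM arrays. Tlr4, the signalling receptor, and Ly96, its partner in LPS binding, had log2 fold changes of −0.00 (SE 0.36) and 0.20 (SE 0.25), with limma adjusted p of 0.997 and 0.742. For Tlr4 the estimate was −0.54 within numbered arrays and 2.14 within TM arrays, and for Ly96 it was 0.03 and 0.85. Of the 13 measured genes of LPS and Toll signalling 0 passed over all genes, 2 had an unadjusted p under 0.05 and were lower, and their median was −0.12.

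In the other phagocyte lists, too, 0 genes passed the limma threshold, as for 0% of all 12393 genes. Most of their medians lay below 0, where that of the members was 0.29. All these medians are from the fit with the title format term, and that of the members moved with this term. Plain list means went both ways: the Fc receptor and adaptor genes averaged 8.86 in EMT and 8.58 in Squamous tumours, and the lysosome genes 11.55 and 11.69. The 12 Fc receptor and adaptor genes, through which phagocytes take up antibody-coated particles, had a median of −0.14 in log2 fold change, and 0 had an unadjusted p under 0.05. The 13 genes of the phagocyte oxidase and leukocyte integrins had a median of −0.12, with Cybb, the catalytic oxidase subunit, at −1.03 (SE 0.52, adjusted p = 0.382). The 21 lysosome genes had a median of −0.19, with 2 lower at an unadjusted p under 0.05: Gpnmb and Lipa, the lysosomal lipase, at −1.32 (SE 0.37, adjusted p = 0.199). Among 19 scavenger and lectin receptors (median −0.26) Cd36, a receptor for fatty acids and lipoproteins that capillary and fat cells also express, had the smallest p, at −2.65 (SE 0.49, adjusted p = 0.123), with 5 of 6 EMT tumours below all Squamous tumours. The 23 genes of alternative activation had a median of −0.02, the 14 of inflammatory activation −0.10 and the 11 myeloid transcription factors −0.07. Acod1, which makes itaconate in activated macrophages, was at −1.94 (SE 0.64, adjusted p = 0.238) and Tnf, an inflammatory cytokine, at −0.40 (SE 0.13, adjusted p = 0.228). Of 13 chemoattractants and their receptors (median 0.02), Ccl12, a monocyte attractant, had the smallest p, at 1.32 (SE 0.53, adjusted p = 0.298), with 3 of 6 EMT tumours above all Squamous tumours.

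**Figure D5:**
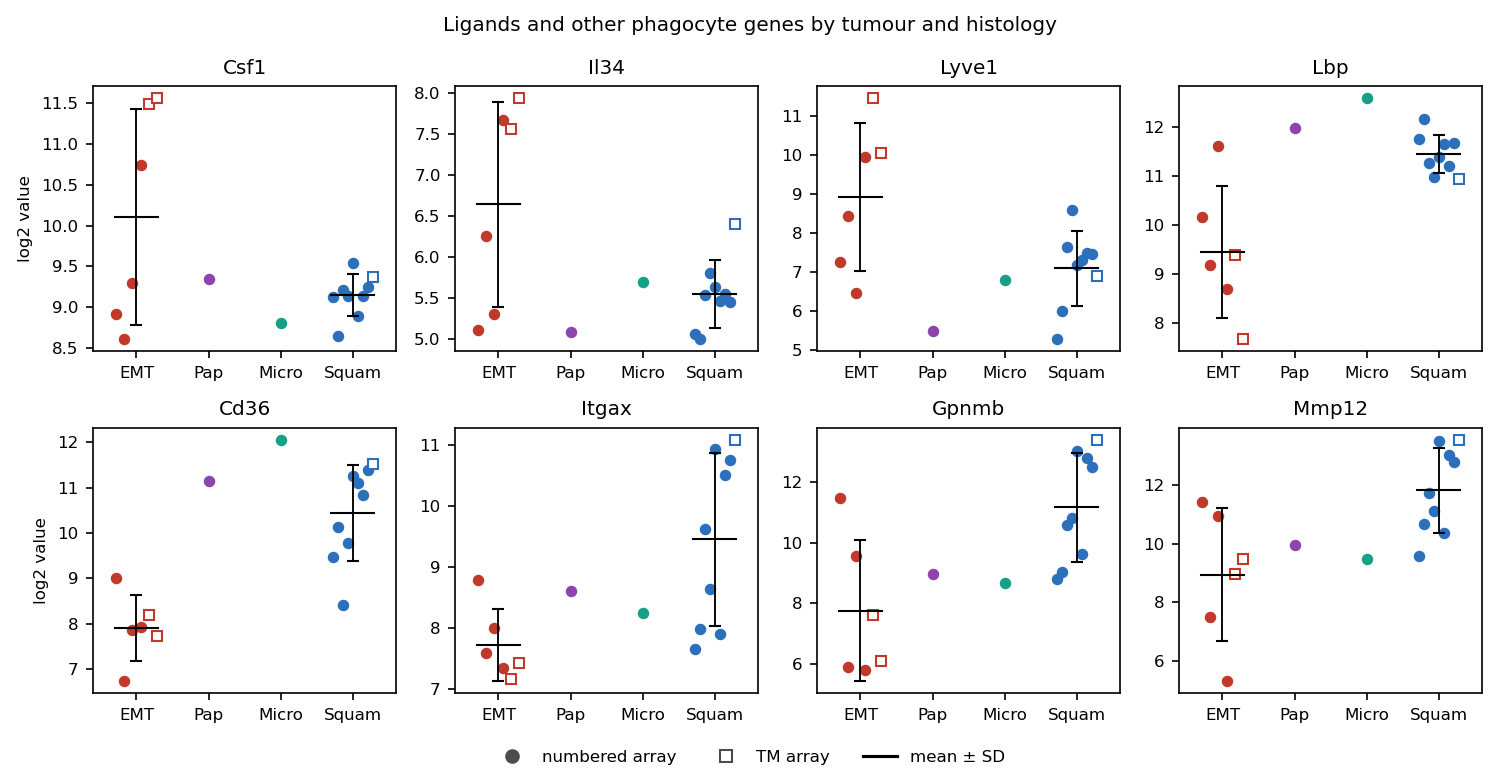
Log2 values (vertical axis) of the ligands Csf1 and Il34, of Lyve1, and of Lbp, Cd36, Itgax, Gpnmb and Mmp12 in every tumour, grouped as EMT, Papillary (Pap), Microacinar (Micro) and Squamous (Squam), with open squares for TM arrays and bars for mean ± SD. In Csf1, Il34 and Lyve1 the 3 highest EMT tumours lie above all Squamous tumours, and in Lbp and Cd36 5 of 6 EMT tumours lie below all Squamous tumours.

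Further macrophage markers checked the label of the list, and Mertk did not follow it. Tyrobp, an adaptor of myeloid receptors, was among the 10 genes whose profile over the 17 tumours was most like the mean of the members, out of 6186 genes above the median level. These were P2ry6, Fermt3, Nckap1l, Pld4, Lgmn, Fcer1g, Pirb, Ninj1, Plekho1 and Tyrobp, with Pearson's r from 0.99 to 0.97 over 17 tumours and from 0.98 to 0.96 over the 14 numbered arrays, values for which they were chosen. Fcgr1, Aif1, Mpeg1 and Mertk, markers of mature macrophages, had log2 fold changes of 0.35, 0.44, −0.59 and −0.76 and that of Tyrobp was −0.13, with limma adjusted p from 0.305 to 0.926. Mertk, a receptor for dying cells, had 4 EMT tumours below all Squamous tumours and 2 above them. Among Squamous tumours Mertk was highest in Squamous 2 (9.50) and Squamous 1 (9.22). These had the lowest means of the 10 members among Squamous tumours, at 9.57 and 9.21. Ptprc, which marks all leukocytes, had a mean of 10.06 ± 1.16 (SD, n = 6) across EMT tumours, against 9.94 ± 1.15 (SD, n = 9) across Squamous tumours.

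Markers of other cell types moved with the 9 genes in part. The mean of 10 fibroblast genes ran from 10.18 to 12.56 in EMT and from 8.73 to 11.94 in Squamous tumours, and its r with the mean of the 9 members was 0.79 over the 17 tumours and 0.82 over the 14 numbered arrays. The mean of 10 endothelial genes ran from 7.05 to 8.25 in EMT and from 6.53 to 8.50 in Squamous tumours, with an r of 0.76. The mean of 9 epithelial genes ran the other way (r = −0.78 over the 17 tumours and −0.53 over the 14 numbered arrays). It was 8.32, 6.74 and 8.02 in EMT 4, EMT 5 and EMT 6, but 11.78, 11.79 and 12.10 in EMT 1, EMT 2 and EMT 3. Across Squamous tumours its mean was 11.65 ± 0.30 (SD, n = 9). The 14 neutrophil genes, which bear on Lyz2 and Cd14, had a mean of 7.51 ± 0.59 (SD, n = 6) across EMT tumours, against 8.59 ± 0.69 (SD, n = 9) across Squamous tumours. Their mean had an r of −0.17 with the 9 members and 0.17 with Cd14 over the 17 tumours. Over the 14 numbered arrays these values were 0.20 and 0.39. Their median log2 fold change was −1.06, and 5 of 14 had an unadjusted p under 0.05, all lower in EMT tumours, as were 6.27% of all genes. Of the 14, 13 had a negative fold change and 1 a positive one, by unlike amounts. Lcn2 was 9.07, 7.76 and 8.48 in EMT 4, EMT 5 and EMT 6, against 12.38 to 13.83 in Squamous tumours. Csf3r ran from 7.33 to 9.36 in EMT and from 7.40 to 9.53 in Squamous tumours. Whether the list mean reflects neutrophils alone was not tested. The 9 members had an r of −0.07 with the dendritic list, 0.01 with mast, 0.14 with B and plasma and 0.58 with T and NK cells. Over the 14 numbered arrays these values were 0.71, 0.67, 0.51 and 0.61. The dendritic list holds Epcam, which is also in the epithelial list, and the mast list holds Kit. In EMT 4, EMT 5 and EMT 6 Epcam was 7.09, 5.92 and 7.56, against 11.19 to 12.05 in Squamous tumours. Kit was 7.54, 7.82 and 7.22 there, against 9.26 to 11.13. The part of these genes in the r values of their lists was not tested. No list member is at 0 on this scale, and the part of these cell types in the macrophage values was not tested. These r values describe the same 17 arrays and carry no p.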

How the data were processed

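Biotin-labelled cRNA made from total RNA of 17 tumours by the standard Affymetrix protocol was hybridised, per the labels' protocols. The deposited log2 values per probe set (22690, none missing) were used as they are; how the authors summarised and normalised them is not given in the sources used here, and that the scale is log2 was judged by their range. Control probe sets (64) were left out, and 20380 had 1 symbol in the supplied probe table, which gave 12393 genes, each by the probe set with the highest mean; 20351 matched the supplied gene table. The number of arrays limits the precision.

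EMT and Squamous tumours were compared by limma (version 3.58.1, R 4.3.3) in an additive model of histology plus title format, with Benjamini-Hochberg adjustment over all genes; the Papillary and Microacinar tumours stayed out. The model was tested on simulated data. Pairs of members were correlated with permutation tests (100000 resamples, or exact below 10 tumours) in Python 3.11.15, numpy 2.4.6 and scipy 1.17.1. The members and the 21 other lists (279 genes, 249 measured) were chosen with earlier results of these data known. Named genes are the members, their partners, the gene with the largest change and the one with the smallest p of each list, the fixed cell markers, the 10 genes most alike and Myc. Alternatives were no title format term, numbered arrays, quantile normalization, subtracted medians, the mean of probe sets, each other probe set, array weights, a robust trended fit, only genes above the median level, 4 groups, the Squamous tumours of one title number averaged, each tumour left out and, added after the data were seen, pairs of tumours left out and an interaction with title format.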

Additional observations from a re-analysis of the deposited data

How the results depend on the processing

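No alternative fit called a member of the list at an adjusted p under 0.05. The count of genes past the threshold was 0 in the main comparison (1778 of 12393 at an unadjusted limma p under 0.05) and between 0 and 14 with 1 tumour left out, 14 being the count without EMT 1; it was 2 without both Squamous 1 and Squamous 2. The members' median log2 fold change lay between −0.04 (without Squamous 9) and 0.44 with 1 tumour left out. Cd14 stayed negative in all tested alternatives, from −1.56 to −0.90, and was 0.24 on the TM arrays, which allow no test of their own. Small fold changes turned sign. Without the title format term Cd68 was 0.23, Adgre1 0.17 and Lyz2 0.15. Among numbered arrays, an estimate that leaving out EMT 5 and EMT 6 or Squamous 9 repeats, C1qa was −0.017, C1qb −0.032 and C1qc −0.042; with 1 tumour left out they lay between these values and 0.623, 0.661 and 0.681. With array weights Csf1r was −0.12, C1qa −0.011, C1qb −0.024, C1qc −0.012 and Msr1 −0.11. Adgre1 was 0.0033 with subtracted array medians and 0.10 with Squamous 7 and Squamous 8 averaged, and lay between −0.21 and 0.16 with 1 tumour left out. On the TM arrays Cd68 was 0.088, Adgre1 0.82 and Lyz2 0.17. The cause was not tested. The other probe sets of C1qb, Csf1r and Msr1 kept the sign of the main one. No paired analysis was possible because the labels give no replicate number shared between EMT and Squamous tumours; the title number that Squamous 5 shares with the Microacinar tumour lies outside that comparison.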

Other observations

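Several genes outside the naming rule, chosen after their values were seen, were high, as Mrc1 and Lyve1 were, in the 3 EMT tumours with the most Csf1r. Folr2, a folate receptor of tissue macrophages, was 9.23, 11.01 and 10.22 in EMT 4, EMT 5 and EMT 6, against at most 8.56 in Squamous tumours. Vsig4, a complement receptor of tissue macrophages, was 7.99, 10.20 and 8.88 in the same tumours, against at most 6.47 in Squamous tumours. Ccr2, the receptor of blood monocytes, was 10.09 in EMT 5 and 10.21 in EMT 6 but 7.07 in EMT 4, where Squamous tumours ran from 6.24 to 8.30. Other scavenger and lectin receptors followed this order only in part. Stab1 was 10.92, 11.40 and 10.85 in EMT 4, EMT 5 and EMT 6, against at most 9.50 in Squamous tumours. Cd163 and Clec10a did not lie above all Squamous tumours in each of these 3 EMT tumours. Cd163 was 7.21, 8.42 and 7.09 in EMT 4, EMT 5 and EMT 6, against at most 7.65 in Squamous tumours. Clec10a was 9.65, 10.31 and 8.23 in these EMT tumours, against at most 10.71 in Squamous tumours. No test was made of these choices.

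The genes above the median level whose profile was most like that of Cd14 alone, a list added after the data were seen, were led by Msrb1, C1qtnf1, Cebpg, Fth1 and Slc3a2, with Pearson's r from 0.86 to 0.81 over the 17 tumours and from 0.86 to 0.78 over the 14 numbered arrays. Cebpb, a transcription factor of myeloid and epithelial cells, was the seventh (r = 0.77). EMT 5 and EMT 6 both lay above all 9 Squamous tumours in 7 of the 10 members, which held for 19.0% of all genes, and in 6 of the 10 after quantile normalization, which held for 19.4% of all genes.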
